A study of Mus musculus with 9 samples.

Results

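The nuclear genes of oxidative phosphorylation were examined in RNA sequencing of mouse cortical neurons grown with or without a peptide scaffold. They were taken by symbol: protein-coding genes named as Nduf subunits of the a, b, c, s and v series, Sdh genes, Uqcr genes, Cyc1, Cox4 to Cox8 genes, and Atp5 genes. This gave 86 of the 54232 genes in the count files, 37 for complex I, 4 for complex II, 9 for complex III, 18 for complex IV and 18 for complex V. They carry 85 symbols, since Atp5o has 2 Ensembl identifiers, and the second of these (ENSMUSG00000116933, a model that runs into the gene Donson) had 0 counts in all 9 libraries. The rule used names only and no measured value, but it was set with earlier results of these data known.

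The 9 libraries came from wild type cortical neurons labelled CD1, an outbred mouse stock, in 3 groups of 3 repeats. The control libraries carry PDL in their names, the PA libraries IKVAV, and the PA + PS2 libraries IKVAV with PEDOT-S-OH. PA is a peptide amphiphile, a peptide with a fatty tail that assembles into fibres, IKVAV is a cell-binding sequence of laminin, and PEDOT polymers conduct electricity. The groups follow the titles, because the treatment label is the same peptide amphiphile in every library and so does not set the controls apart. The labels give no age, dose or time in culture. They do not say what a repeat is, and if repeats came from one culture the p-values reflect technical spread only. The series title places the work in the study of neuronal maturation on conductive scaffolds.

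Oxidative phosphorylation makes most of the ATP of a neuron. Complexes I and II feed electrons from NADH and succinate to ubiquinone, complex III passes them to cytochrome c, complex IV passes them to oxygen, and complex V, the ATP synthase, uses the proton gradient that results. Complexes I, III, IV and V combine subunits encoded in the nucleus with a few encoded in mitochondrial DNA, while complex II is nuclear throughout. Several complex IV subunits have alternative genes used in heart, skeletal muscle, lung or testis. The ring subunit of complex V is encoded by several genes.

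The libraries held between 20746851 and 27237398 counts. A gene's level is its CPM, the usual count scaled to library size, here after the TMM correction of library sizes. Levels compared between genes are CPM per kilobase of the main transcript. Neuron markers were high in every library, at summed levels of 7077 to 7716 CPM in control, 6861 to 8159 in PA and 7511 to 8233 in PA + PS2. The share of mitochondrially encoded reads was lowest in 2 libraries of repeat 1, PA (0.342%) and control (0.531%), and lay between 0.786% and 1.39% in the remaining 7. Where a fold change is followed by a range with 1 library left out, the range covers the fits that leave out each of the 9 libraries in turn.

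No nuclear subunit gene passed the test for a difference between any of the groups. Of the 86 genes, 80 had enough counts to be tested, and 0 of 80 passed an adjusted p under 0.05 in PA against control, in PA + PS2 against control or in PA + PS2 against PA, by edgeR's quasi-likelihood test with Benjamini-Hochberg adjustment over 15712 genes. Among all genes tested, 0%, 0.0446% and 0% passed in these comparisons. At an unadjusted p under 0.05 the counts were 0, 0 and 1 of 80, beside 1.22%, 5.63% and 5.61% of all genes. DESeq2 was run without the filter on low counts, on 84 members and 31609 genes, so its shares are not on the same base. It gave 0, 0 and 1 member at the unadjusted p, beside 0.766%, 3.1% and 3.23% of these genes. Its adjusted p covered 31609, 16865 and 17454 genes. There 0 members passed in each comparison, beside 0%, 1.26% and 0.693% of those genes. An edgeR fit with the repeat number as a block also passed 0 members in each comparison, beside 0%, 1.17% and 0.363% of the 15712 genes.

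The intervals limit how large a change could have gone unseen. The 95% interval of the fold change lay within 1.5-fold in either direction for 69, 70 and 69 of the 80 genes in PA against control, PA + PS2 against control and PA + PS2 against PA, and within 2-fold for 73, 74 and 73. The median standard error of a log2 fold change was 0.13. In bulk RNA, fewer cells of a type and less RNA per cell cannot be told apart.

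**Figure D1:**
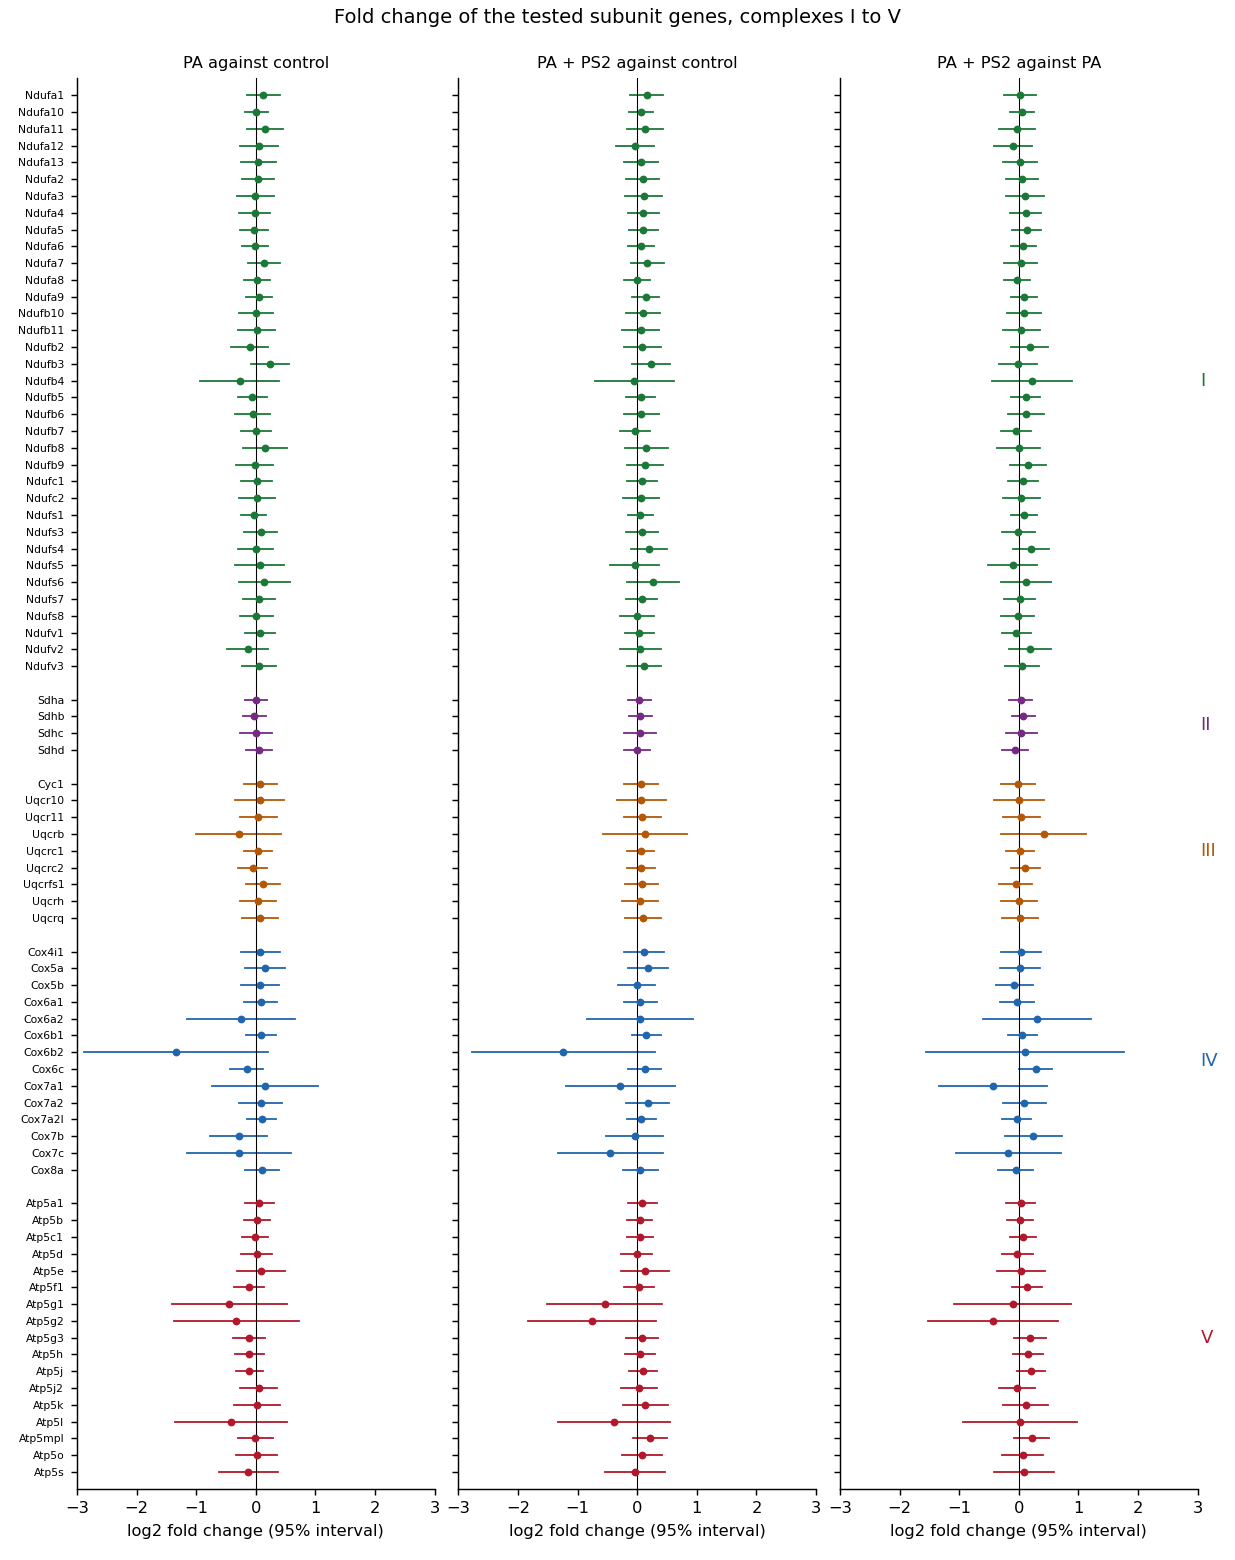
Log2 fold change (x axis) of the tested subunit genes (y axis, 1 gene left out, grouped and coloured by complex I to V) in the 3 comparisons; points are edgeR estimates and lines their 95% intervals. Most intervals are short and cross 0, and the long ones belong to genes with few reads, such as Cox6b2, Atp5g1, Atp5g2, Atp5l and Cox7c.

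Complex I, the NADH dehydrogenase, is the entry point for electrons from NADH. Its 37 genes had a median of 53 CPM per kilobase. Ndufa4 was the highest, at 181 CPM per kilobase; it carries a complex I name but is now regarded as a subunit of complex IV. Ndufa4 measured 119, 91.4 and 114 CPM in control repeats 1 to 3, 100, 108 and 112 in PA, and 118, 103 and 127 in PA + PS2. Ndufa7, an accessory subunit, followed with 99.6 CPM per kilobase and measured 54.8, 42.1 and 49.7 CPM in control, 61.4, 50.2 and 49.9 in PA, and 53.6, 51.8 and 59.6 in PA + PS2. Both genes overlapped across all 3 groups.

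The 7 core subunits, which bind the flavin and the iron-sulphur clusters and are shared with bacteria, had a median of 49.4 CPM per kilobase. The 30 accessory subunits had a median of 54.2. The median log2 fold changes of the core subunits were 0.06, 0.05 and 0.02 in PA against control, PA + PS2 against control and PA + PS2 against PA, and those of the 29 tested accessory subunits were 0.02, 0.09 and 0.06. The ranges of these classes overlapped in each comparison.

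The smallest p-values of complex I belonged to Ndufb3 and Ndufs4. Ndufb3, an accessory subunit of the membrane arm, measured 24.8, 18.7 and 20.3 CPM in control, 24.3, 21.8 and 29.1 in PA, and 22.8, 24.7 and 27.2 in PA + PS2. Its log2 fold change was 0.24 ± 0.15 (SE) in PA against control and 0.23 ± 0.15 in PA + PS2 against control, with an adjusted p of 1 in both by edgeR. With 1 library left out the first ran from 0.12 (without PA repeat 3) to 0.37 (without control repeat 1), and the second from 0.15 to 0.36 (without control repeats 2 and 1). Control repeat 2 was the lowest library and the groups overlapped.

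Ndufs4, an accessory subunit needed for a stable complex and known for its loss in Leigh syndrome, lies at chr13:114287795-114388258 (GRCm38, minus strand). It measured 50.9, 48.6 and 63.5 CPM in control, 46.2, 55.7 and 60.6 in PA, and 57.6, 59.9 and 70.1 in PA + PS2. Within each repeat the PA + PS2 library was the highest of the 3. The log2 fold change was 0.20 ± 0.14 (SE) in PA + PS2 against control and 0.21 ± 0.14 in PA + PS2 against PA, with edgeR adjusted p of 1 and 0.999. With 1 library left out these ran from 0.11 (without PA + PS2 repeat 3) to 0.33 (without control repeat 3), and from 0.11 (without PA repeat 1) to 0.30 (without PA repeat 3). With the repeat as a block the unadjusted p became 0.0333 and 0.0309, and the adjusted p 0.507 and 0.461, so the gene did not pass there either. Ndufs6, an accessory subunit, was the other complex I gene whose p fell under the unadjusted threshold with the block in PA + PS2 against control, with an edgeR adjusted p of 0.541.

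Ndufa11, an accessory subunit of the membrane arm, measured 53, 39.6 and 47.3 CPM in control, 61.5, 48.7 and 45.4 in PA, and 52.9, 48.6 and 51.3 in PA + PS2. In PA against control the difference was 0.15 ± 0.14 (log2, SE), edgeR adjusted p 1. Without PA repeat 1 it was 0.01, but with all repeat 1 libraries left out it was 0.12. It was 0.05 without control repeat 2 and 0.26 without control repeat 1. Ndufb2, a small accessory subunit, measured 25, 21.2 and 29.6 CPM in control, 19.9, 24.8 and 25.9 in PA, and 26.6, 25.7 and 27.9 in PA + PS2. The difference in PA + PS2 against PA was 0.19 ± 0.14 (log2, SE), edgeR adjusted p 0.999, and the groups overlapped at 25.9 and 25.7 CPM. Without PA repeat 1 it was 0.08. Over the 36 complex I genes tested, log2 fold changes ran from -0.27 (Ndufb4) to 0.24 (Ndufb3) in PA against control, from -0.05 (Ndufb4) to 0.26 (Ndufs6) in PA + PS2 against control, and from -0.10 (Ndufs5) to 0.22 (Ndufb4) in PA + PS2 against PA. The 37th gene, Ndufa4l2, is described with the paralogs.

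Complex II, succinate dehydrogenase, also works in the citric acid cycle. All of its genes were measured tightly. Sdha, the flavoprotein that oxidises succinate, measured 174, 169 and 173 CPM in control, 173, 163 and 182 in PA, and 175, 166 and 188 in PA + PS2. Sdhb, the iron-sulphur subunit, measured 129, 111 and 117 CPM in control, 119, 116 and 115 in PA, and 122, 118 and 129 in PA + PS2. These genes spread over the 9 libraries by factors of only 1.16 and 1.17 between the lowest and the highest.

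The membrane anchors varied slightly more. Sdhc measured 119, 99.8 and 106 CPM in control, 123, 91.9 and 111 in PA, and 107, 107 and 122 in PA + PS2. Sdhd measured 71.9, 64.6 and 71.7 CPM in control, 74.6, 66.8 and 75.8 in PA, and 70, 63.6 and 74.5 in PA + PS2. In both anchors repeat 2 gave the lowest control and PA libraries.

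Complex II gave the narrowest limits of the 5 complexes, with a median standard error of 0.09. All 4 genes had intervals within 1.5-fold in each comparison. The largest log2 difference was 0.08 ± 0.09 (SE) for Sdhb in PA + PS2 against PA, with an edgeR adjusted p of 0.999. In PA against control Sdhd stood at 0.06 ± 0.10 (SE) and Sdhb at -0.03 ± 0.09. In PA + PS2 against control Sdhb stood at 0.05 ± 0.09 (SE) and Sdhc at 0.05 ± 0.12, all with an edgeR adjusted p of 1. With 1 library left out these values lay between -0.08 and 0.13.

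Complex III, the cytochrome bc1 complex, had a median of 84 CPM per kilobase over its 9 genes. Uqcrh, the hinge protein that helps cytochrome c bind, was the highest at 125 CPM per kilobase and measured 80.1, 53 and 67.7 CPM in control, 73.4, 69.1 and 64.6 in PA, and 67.4, 64.8 and 75.1 in PA + PS2. Uqcr10, a small structural subunit, measured 54.5, 34.9 and 41.8 CPM in control, 57.1, 39.3 and 40.7 in PA, and 48.1, 37.7 and 51.9 in PA + PS2. Its highest and lowest libraries, PA repeat 1 and control repeat 2, differ 1.64-fold, more than any difference between group means.

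The redox-active nuclear subunits of complex III are Cyc1 (cytochrome c1) and Uqcrfs1 (the Rieske iron-sulphur protein). Cyc1 ran from 119 to 166 CPM over the 9 libraries, with groups that overlapped. Uqcrfs1 measured 91.4, 76.6 and 90.3 CPM in control, 109, 79.7 and 92.3 in PA, and 86.1, 85.5 and 99.9 in PA + PS2. Its log2 fold change was 0.12 ± 0.13 (SE) in PA against control, edgeR adjusted p 1. Without PA repeat 1 the value was 0 to 2 decimals, and with all repeat 1 libraries left out it was 0.04.

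Among the other complex III genes, Uqcrq, a small subunit next to cytochrome b, measured 94.6, 69.3 and 76.1 CPM in control, 98.5, 76.6 and 77.3 in PA, and 84.6, 79.7 and 92.3 in PA + PS2. Uqcr11, the smallest subunit, measured 42.9, 30.7 and 35.3 CPM in control, 43.8, 34.3 and 34 in PA, and 40.3, 36 and 39 in PA + PS2. Their log2 fold changes in PA + PS2 against control were 0.10 ± 0.14 and 0.08 ± 0.14 (SE), with edgeR adjusted p of 1. Uqcrc2, a core scaffold subunit, measured 141, 115 and 129 CPM in control, 115, 124 and 132 in PA, and 136, 120 and 145 in PA + PS2. PA + PS2 differed from PA by 0.11 ± 0.11 (log2, SE), edgeR adjusted p 0.999. With 1 library left out these ran from 0.01 to 0.24 for Uqcrq and from -0.02 to 0.22 for Uqcr11, in each case without control repeats 2 and 1, and from 0.05 to 0.18 for Uqcrc2, without PA + PS2 repeats 3 and 2. In every one of these genes control repeat 2 was the lowest or shared the lowest value.

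Uqcrb, a matrix-side subunit, was the low member of complex III with 19.7 CPM per kilobase. It measured 7.97, 9.65 and 14.9 CPM in control, 4.23, 11.5 and 10.9 in PA, and 12.2, 11.1 and 12.3 in PA + PS2. PA repeat 1 was the lowest library and control repeat 3 the highest. In log2 terms the difference was -0.28 ± 0.33 (SE) in PA against control and 0.42 ± 0.32 in PA + PS2 against PA, with edgeR adjusted p of 1 and 0.999. Without PA repeat 1 these values were 0.05 and 0.09.

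Complex IV, cytochrome c oxidase, passes electrons to oxygen. Cox4i1, its largest nuclear subunit, had 298 CPM per kilobase and measured 254, 171 and 229 CPM in control, 266, 203 and 220 in PA, and 230, 214 and 263 in PA + PS2. Cox6a1, a regulatory subunit at the dimer interface, had 265 CPM per kilobase and measured 162, 132 and 145 CPM in control, 184, 132 and 149 in PA, and 151, 142 and 162 in PA + PS2. PA repeat 1 was the highest library for both, and control repeat 2 gave or shared the lowest value.

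Cox6c, a small membrane subunit without a heart form, gave the smallest p among all 80 genes in PA + PS2 against PA. It lies at chr15:35925886-35938246 (GRCm38, minus strand) and has 2 near-identical processed copies. It measured 61.7, 52.6 and 58.6 CPM in control, 42.1, 55.6 and 57.6 in PA, and 63.7, 58.2 and 67.1 in PA + PS2. The PA + PS2 and PA libraries did not overlap, while control overlapped both. The difference was 0.28 ± 0.13 (log2, SE), with an unadjusted p of 0.0467 and an adjusted p of 0.858 by edgeR. Without PA repeat 1, the library poorest in mitochondrially encoded reads, the value was 0.16.

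Cox7b, a small subunit needed for assembly, had the widest spread among complex IV genes above 10 CPM. It measured 111, 55.4 and 73.2 CPM in control, 60.4, 68 and 67.6 in PA, and 93.6, 61.4 and 77.4 in PA + PS2. Control repeats 1 and 2 alone differ by a factor of 2, and both other groups lie between them. Between groups the log2 difference was -0.29 ± 0.22 (SE) in PA against control, where it turned to 0.02 without control repeat 1, and 0.24 ± 0.22 in PA + PS2 against PA, where it was 0.10 without PA + PS2 repeat 1. The edgeR adjusted p was 1 and 0.999.

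Cox6b1, the subunit that faces the intermembrane space and helps couple the dimer, measured 155, 123 and 138 CPM in control, 161, 133 and 148 in PA, and 150, 144 and 167 in PA + PS2. It differed by 0.15 ± 0.11 (log2, SE) in PA + PS2 against control, edgeR adjusted p 1, with 0.08 without control repeat 2 and 0.24 without control repeat 1. Cox8a measured 71.8 to 105 CPM over the 9 libraries and Cox7a2 64.6 to 102. Cox7a2l, which helps complexes III and IV join in supercomplexes, ran from 27.3 to 35.1 CPM. None of these separated the groups.

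Complex V, the ATP synthase, held the 2 most abundant genes of all 86 per kilobase. Atp5b, the catalytic beta subunit, had 532 CPM per kilobase and measured 1081, 961 and 971 CPM in control, 1099, 939 and 1016 in PA, and 997, 999 and 1102 in PA + PS2. Atp5a1, the alpha subunit that pairs with it, had 319 CPM per kilobase and measured 810, 723 and 755 CPM in control, 883, 685 and 809 in PA, and 773, 772 and 883 in PA + PS2. Each repeated the same order of libraries in PA, with repeat 1 highest and repeat 2 lowest.

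Atp5j, coupling factor 6 of the stalk, did not overlap between PA + PS2 and PA. It measured 74.7, 61.6 and 72.6 CPM in control, 58.3, 68.7 and 66.4 in PA, and 73.4, 72.4 and 77.2 in PA + PS2. This gave a log2 difference of 0.21 ± 0.10 (SE) in PA + PS2 against PA, edgeR adjusted p 0.989, and -0.11 ± 0.11 in PA against control, adjusted p 1. Without PA repeat 1 these were 0.14 and -0.04, and without control repeat 1 the second was -0.06 and without control repeat 2 -0.19. The gene overlaps Gabpa on the opposite strand over 397 bases, and the labels do not say whether the counts used strand.

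Atp5mpl, a small proteolipid of the membrane part, measured 45, 36 and 45.6 CPM in control, 37, 41.3 and 47.8 in PA, and 50.2, 43.3 and 53.4 in PA + PS2. It differed by 0.21 ± 0.13 (log2, SE) in PA + PS2 against control and 0.22 ± 0.13 in PA + PS2 against PA, with edgeR adjusted p of 1 and 0.999. PA + PS2 overlapped both other groups. The first value was 0.12 without control repeat 2 and the second 0.14 without PA repeat 1.

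With the repeat as a block, 4 members had an unadjusted p under 0.05 in PA + PS2 against PA (Ndufs4, Cox6c, Atp5mpl and Atp5g3), beside 9.3% of all genes. The smallest adjusted p among the 80 was then 0.427 by edgeR. The block gave 2 members in PA + PS2 against control (Ndufs4 and Ndufs6), beside 8.1% of all genes. In PA against control it gave 0 members, beside 2.74%.

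Groups that did not overlap were as scarce. In PA against control 1 member was lower without overlap (Cox6b2) and 0 were higher, beside 2.07% and 1.97% of all genes. For PA + PS2 against control 2 were lower (Cox7c and Atp5g2) and 0 higher, beside 6.54% and 5.38%. In PA + PS2 against PA 3 were higher (Ndufa6, Cox6c and Atp5j) and 0 lower, beside 3.32% and 6.32%. These shares of 80 genes are near or below the shares of all genes.

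The inhibitor of the ATP synthase, Atpif1, falls outside the symbol rule and was measured beside it. It had 147, 114 and 142 CPM in control, 124, 138 and 143 in PA, and 147, 133 and 159 in PA + PS2. Its adjusted p was 1, 1 and 0.999 in the 3 comparisons by edgeR.

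Summed over each complex, the levels of the groups differed by less than the spread between repeats. Complex I summed to 1854 ± 170 CPM (SD, n = 3) in control, 1888 ± 98.4 in PA and 1965 ± 118 in PA + PS2. Complex II summed to 469 ± 24.7, 470 ± 28.6 and 481 ± 29.8 CPM in the same order. Complex III summed to 751 ± 90.4, 773 ± 78.2 and 786 ± 49.3 CPM. Each mean lies inside the spread of the control libraries.

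Complex IV summed to 941 ± 142 CPM (SD, n = 3) in control, 972 ± 103 in PA and 1005 ± 77.3 in PA + PS2. Complex V summed to 2831 ± 215, 2848 ± 222 and 2952 ± 205 CPM. Over all members the sums were 6847 ± 639, 6951 ± 521 and 7190 ± 473 CPM, so the mean of PA was 1.52% above control and that of PA + PS2 5.01% above control and 3.44% above PA. The single libraries ran from 6200 CPM (control repeat 2) to 7699 (PA + PS2 repeat 3), a factor of 1.24.

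**Figure D2:**
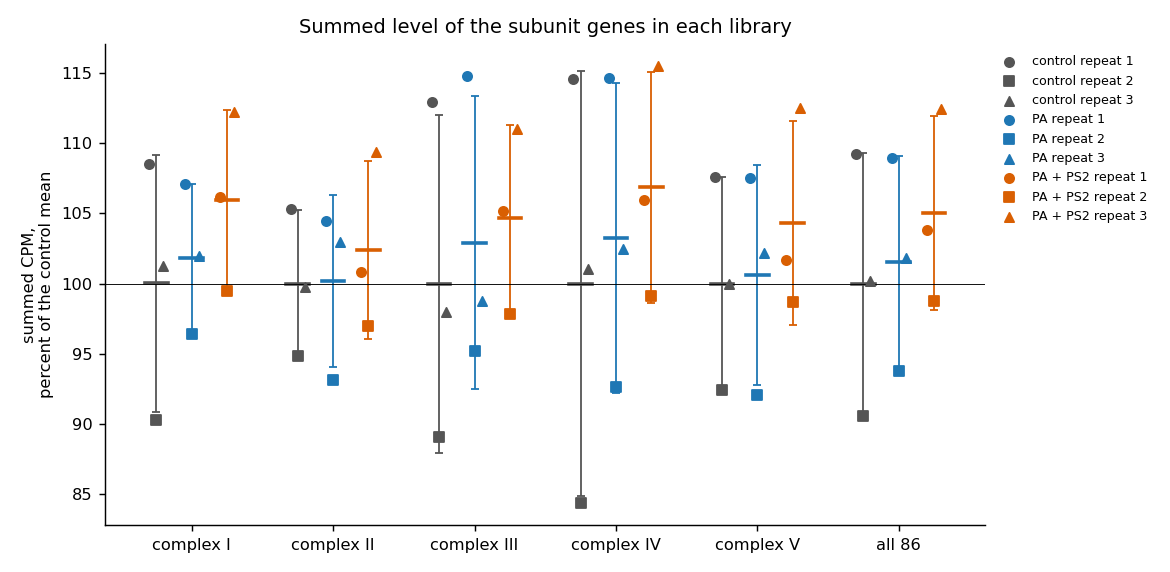
Summed CPM of the members of each complex and of all 86, as a percentage of the control mean (y axis), for each library; symbols mark repeats 1 to 3, colours the groups, bars the mean and lines 1 SD. The groups overlap in every complex: control repeat 1, PA repeat 1 and PA + PS2 repeat 3 lie high, and control repeat 2 and PA repeat 2 lie low.

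In each group there was a library in which most members lay on one side of their means. Relative to each gene's mean over the 9 libraries, 69 of the 80 tested members were above 0 in control repeat 1 and 72 in PA + PS2 repeat 3. In control repeat 2 only 7 were above 0, and in PA repeat 2 only 11. PA repeat 1 was mixed, with 50 above 0 and medians of 0.238 for complex III, 0.206 for complex IV and -0.126 for complex V. The median deviation (log2) was 0.107 in control repeat 1, 0.123 in PA repeat 1 and 0.153 in PA + PS2 repeat 3. It was -0.172 in control repeat 2 and -0.095 in PA repeat 2. The 75 ribosomal protein genes tested, a group of short and abundant transcripts, had medians of 0.13, 0.072 and 0.081 in the first 3 of these libraries and -0.103 and -0.07 in the last 2.

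This sets how far the direction of the members can be read. The log2 fold change was above 0 in 50 of 80 members in PA against control (median 0.02), beside 47.2% of all genes. It was above 0 in 63 of 80 in PA + PS2 against control (median 0.06), beside 49.8%, and in 57 of 80 in PA + PS2 against PA (median 0.04), beside 51.4%. Without control repeat 2 these counts were 21 in PA against control (median -0.07) and 43 in PA + PS2 against control (median 0.01). Without PA repeat 1 the count in PA against control was 29, and without PA + PS2 repeat 3 the count in PA + PS2 against PA was 38. In PA against control and PA + PS2 against PA the side that held most members therefore depended on single libraries. In PA + PS2 against control 43 to 74 members were above 0 with each library left out in turn, so none of the 9 alone turned that majority.

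Within PA repeat 1 the deviation of a member followed the GC content of its main transcript. Over the 80 members the correlation was 0.57, over all genes in that library 0.62, and these points share one library, so it is given as a description. The 40 members richer in GC had a median deviation of 0.218 there and the 40 poorer ones -0.058. In control repeat 1 the correlation over members was 0.27, and in PA repeat 3 it was -0.34. Uqcrb (42.2% GC) and Cox6c (48.7% GC) lie among the low values of PA repeat 1, and Cyc1 (55.7% GC) among the high ones. With the libraries corrected for GC content, an alternative chosen after seeing the data, 0 members passed by edgeR in each comparison, beside 0%, 0.35% and 0.0127% of all genes, and 41, 64 and 66 of 80 were above 0.

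**Figure D3:**
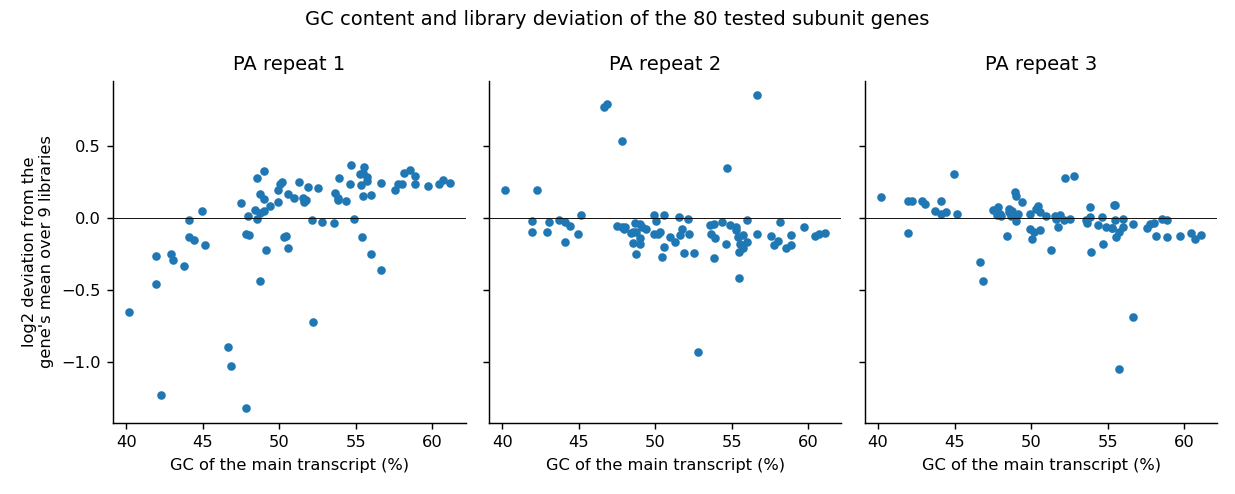
Log2 deviation of each of the 80 tested members from its mean over the 9 libraries (y axis) against the GC content of its main transcript in percent (x axis), for the 3 PA libraries. In PA repeat 1 the deviation tends to rise with GC content (r = 0.57), with a median of 0.218 for GC-rich members and -0.058 for GC-poor ones. Both classes hold members on either side of 0. In repeat 3 the slope is weakly the other way (r = -0.34).

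Stably measured genes were the rule. Of the 70 members with a mean of at least 10 CPM, 54 differed by less than 1.5-fold and 68 by less than 2-fold between the lowest and the highest of the 9 libraries. The exceptions to the latter were Uqcrb, at 3.53-fold, and Cox7b, at 2-fold.

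The tissue-restricted paralogs were near or at the floor, and the common form of each subunit held nearly all the reads. Cox4i2, the lung and hypoxia form, had 8 reads in all 9 libraries together, while Cox4i1 had 3924 to 6325 reads per library. Cox8b, a heart and muscle form, had 10 reads in all. Cox8c, the testis form, had 0, which allows up to 3 counts, or 0.145 CPM in the shallowest library, and their partner Cox8a had 1639 to 2332 per library. Cox7b2 had 9 reads in all and Ndufa4l2, a hypoxia-induced relative of Ndufa4, had 19. Those 5 genes and the second Atp5o model are the 6 members that were not tested.

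Other muscle and testis forms were low but counted in every library. Cox6a2, the heart and muscle form, had 10 to 29 reads per library and 1.33 CPM per kilobase, against 265 for Cox6a1. It measured 0.698, 1.22 and 0.921 CPM in control, 0.855, 0.419 and 1.09 in PA, and 0.962, 0.848 and 1.12 in PA + PS2. Cox7a1, also a heart and muscle form, had 9 to 19 reads and 1.59 CPM per kilobase, against 133 for Cox7a2. It measured 0.781, 0.391 and 0.737 CPM in control, 0.81, 0.796 and 0.526 in PA, and 0.529, 0.54 and 0.499 in PA + PS2. Neither separated the groups.

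Cox6b2, the testis form of Cox6b1, had the largest fold change of any member and too few reads to judge it. It lies at chr7:4751792-4753094 (GRCm38, minus strand) and had 13, 14 and 29 reads in control, 11, 8 and 4 in PA, and 13, 10 and 1 in PA + PS2. These are 0.534, 0.609 and 1.34 CPM, then 0.495, 0.335 and 0.15, then 0.625, 0.385 and 0.0416. All PA libraries lay below all control libraries, and PA + PS2 overlapped control. On the log2 scale this was -1.34 ± 0.71 (SE) in PA against control and -1.24 ± 0.70 in PA + PS2 against control, with an edgeR adjusted p of 1 in both. The first was -0.82 without control repeat 3 and the second -0.71 without PA + PS2 repeat 3, the library with 1 read. In CPM per kilobase it stood at 0.857, against 237 for Cox6b1.

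Since heart and muscle forms belong to contractile cells elsewhere, markers of such cells and of other non-neuronal cells are given beside them. The summed level of 12 pericyte and smooth muscle markers was 79.9 to 157 CPM in control, 87.5 to 124 in PA and 13.3 to 52.7 in PA + PS2. Of the 9 of these tested, 0 passed in PA + PS2 against control by edgeR and 4 were lower at adjusted p under 0.05 with the repeat as a block, among them Acta2, Myl9 and Pdgfrb. The 10 fibroblast and meninges markers summed to 44.1 to 96.1, 27.8 to 74 and 7.24 to 32.1 CPM, with 2 of 7 lower with the block. The 8 progenitor and proliferation markers summed to 309 to 521, 342 to 448 and 223 to 251 CPM, with 5 of 8 lower with the block. The 9 heart and skeletal muscle markers stayed at 7.69 to 10.6 CPM in all libraries. The 9 astrocyte markers summed to 173 to 289, 231 to 269 and 177 to 217 CPM, and 0 of 8 passed in either direction with the block. The 8 oligodendrocyte lineage markers summed to 57.9 to 80.2, 65.3 to 72.6 and 50.9 to 74.4 CPM. In PA + PS2 against control 2 of these were lower with the block, the lineage factors Olig1 (edgeR adjusted p 0.00687) and Olig2 (0.00953), and 1 was higher, the myelin gene Mag (0.0479, log2 2.24). The 8 microglia markers summed to 6.49 to 8.74, 5.67 to 7.79 and 7.94 to 9.48 CPM. With the block 1 of 6 was higher, the lysozyme gene Lyz2 (edgeR adjusted p 0.0148, log2 2.27). Lyz2 measured 1.52, 0.522 and 0.737 CPM in control and 3.7, 4.63 and 5.2 in PA + PS2. In PA + PS2 against control 2 of these 6 were above 0 and 4 below, with a median log2 fold change of -0.62. Without the block Cx3cr1 stood at -1.96 (edgeR adjusted p 0.332) and C1qb at -1.32 (0.368). The 7 endothelial markers summed to 6.86 to 9.94, 5.6 to 8.38 and 2.62 to 5.24 CPM, with 0 of 4 passing. Without the block 0 genes of any list in this paragraph passed in PA + PS2 against control, beside 0.0446% of all genes. With the block 1.17% of all genes passed in that comparison. What part these cells have in the levels of the subunit genes was not tested.

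**Figure D4:**
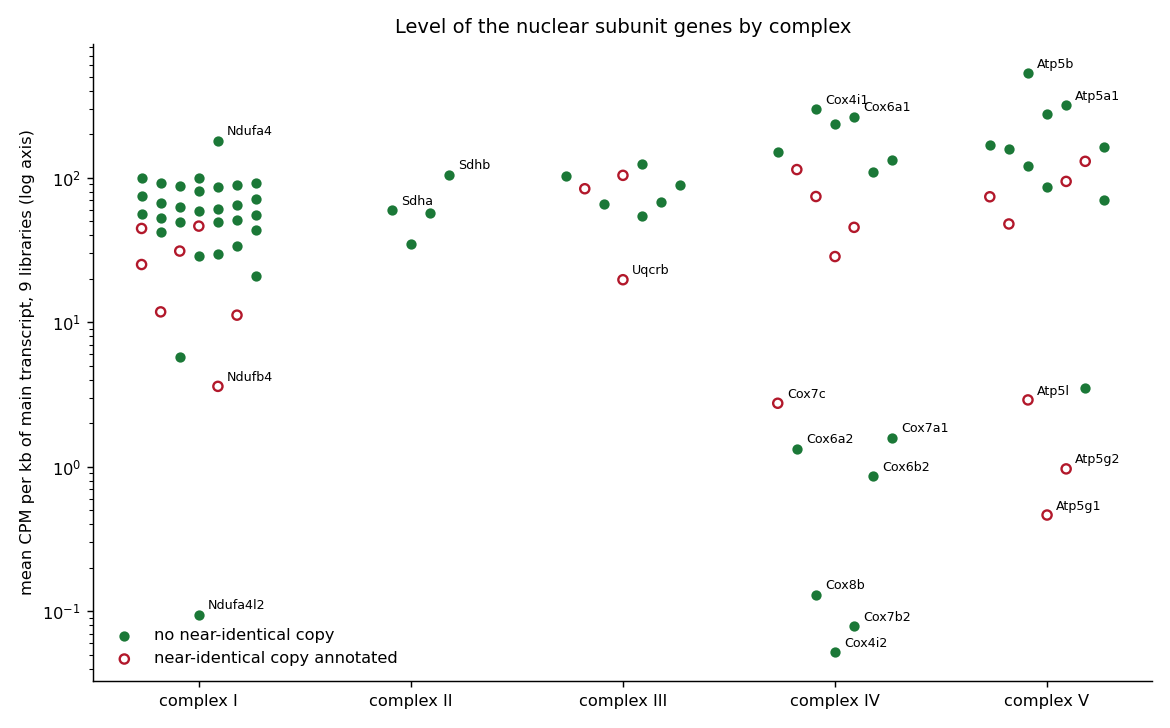
Mean level over the 9 libraries in CPM per kilobase of the main transcript (log y axis) for the members of each complex, leaving out the 2 with no counts (Cox8c and the second Atp5o model); open red circles have at least 1 annotated near-identical copy. Most genes lie between 20 and 300 CPM per kilobase; the low group holds tissue-restricted paralogs and, among ubiquitous subunits, Cox7c, Atp5l, Atp5g1, Atp5g2 and Ndufb4.

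A few subunits that every cell needs were listed at very low levels. Atp5g1, Atp5g2 and Atp5g3 encode the same mature ring subunit c of the ATP synthase. Atp5g3 had 276 CPM per kilobase, Atp5g2 0.966 and Atp5g1 0.463. Atp5g3 measured 211, 171 and 211 CPM in control, 180, 163 and 208 in PA, and 212, 190 and 227 in PA + PS2. Atp5g1 measured 2.38, 3.91 and 1.84 CPM in control, 0.945, 3.56 and 1.47 in PA, and 1.73, 2.12 and 1.7 in PA + PS2. Atp5g2 measured 0.657, 1.13 and 0.875 CPM in control, 0.495, 1.26 and 0.376 in PA, and 0.481, 0.501 and 0.582 in PA + PS2.

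Atp5g2 was lower without overlap in PA + PS2 than in control, with 10 to 30 reads per library. The log2 difference was -0.76 ± 0.49 (SE), edgeR adjusted p 1. That of Atp5g1 in PA against control was -0.45 ± 0.44 (SE), adjusted p 1, and with 1 library left out it ran from -1.17 (without PA repeat 2) to -0.08 (without control repeat 2), with -0.12 without PA repeat 1. Atp5l, subunit g of the synthase, had a mean of 1.58 CPM, and Cox7c, an obligatory subunit of complex IV, 1.49. Ndufb4 had 3.5.

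Sequence shared with the transcripts of other annotated genes was sought for every member. An annotated gene or pseudogene with at least 95% identity over at least 50% of the coding sequence exists for 23 of the 86 members. For 1 of them, the second Atp5o model, it is Donson, which overlaps that model on the same strand over 287 bases and is not a copy elsewhere. Leaving out the tissue-restricted paralogs and the second Atp5o model, the 22 members with such a copy had a median of 37.9 CPM per kilobase and the 55 without one 75.3. Levels with a copy ran from 0.463 to 130 CPM per kilobase and those without one from 3.52 to 532. Of the 7 such members under 10 CPM per kilobase, 5 have a copy (Atp5g1, Atp5g2, Cox7c, Atp5l and Ndufb4) and 2 do not (Atp5s, a factor associated with the synthase, and Ndufb2, whose main transcript is far longer than its coding sequence). The main transcript of Atp5g1 is also long, with 4715 bases of which 408 are coding. What part the copies have in these levels was not tested.

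In 7 members the entire coding sequence lies in stretches of at least 50 bases that are found unchanged in other annotated genes: Ndufb4, Uqcrb, Cox7c, Atp5g1, Atp5g2, Atp5l and the second Atp5o model. The last of these overlaps Donson and the first Atp5o gene on the same strand, so its shared stretches include bases at the same place in the genome. The first 150 of the 309 coding bases of Atp5l and the 189 of Cox7c, from GENCODE M21 (GRCm38), are shown because they are the plainest cases. Capitals mark the bases that lie in such stretches, which here are all of them. Atp5l (chr9:44912557-44920742, minus strand) shares stretches with 14 other genes and Cox7c (chr13:86044816-86046904, minus strand) with 3.
Atp5l: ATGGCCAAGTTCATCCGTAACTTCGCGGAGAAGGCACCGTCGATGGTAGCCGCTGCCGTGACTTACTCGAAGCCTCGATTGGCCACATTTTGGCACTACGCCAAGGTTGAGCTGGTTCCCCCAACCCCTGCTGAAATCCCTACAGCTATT
Cox7c: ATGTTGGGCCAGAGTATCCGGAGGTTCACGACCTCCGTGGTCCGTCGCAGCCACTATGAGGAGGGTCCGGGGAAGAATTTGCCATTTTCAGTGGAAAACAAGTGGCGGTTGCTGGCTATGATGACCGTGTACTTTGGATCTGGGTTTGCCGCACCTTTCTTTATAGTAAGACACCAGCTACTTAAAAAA

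For genes with copies the deposited counts are uncertain, since how reads that match several genes were counted is not given in the sources used here. Some copies hold counts themselves. Gm15920, a processed pseudogene 99.5% identical to Ndufa12, measured 5.13 to 11.2 CPM, against 11.2 to 14.7 for Ndufa12. Gm6969, 97.6% identical to Cox7a2l, measured 5.86 to 7.82 CPM. Gm10039, 99.8% identical to Atp5g1, had a mean of 3.16 CPM against 2.18 for Atp5g1 itself. The fold changes of members with a copy had medians of 0.01, 0.05 and 0.03 over 22 genes in the 3 comparisons, and those of members without one 0.02, 0.07 and 0.04 over 58.

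The promoters of the members carry letters of factors known for controlling nuclear respiratory genes. RefSeq promoters (GRCm38.p6, 250 bases before to 50 after the start) were found for 68 members and 27025 genes. The NRF1 core, a GC-rich motif, occurred on either strand in 17 members, 25%, and in 5.19% of all genes. The GABPA core CCGGAAG occurred in 16 members, 23.5%, and in 9.93% of all genes. The YY1 core AAGATGGC occurred in 10 members, 14.7%, and in 3.19% of all genes. At least 1 of the 3 was present in 37 members, 54.4%, and in 16.4% of all genes. A match is a description of the letters and not of binding.

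One promoter each of complexes I, III, IV and V is printed as 100 bases on the strand of the gene, ending 0, 13, 85 and 49 bases before the annotated start for Ndufa8, Uqcr11, Cox6a1 and Atp5e, with capitals marking the matches to the NRF1 core (Ndufa8 and Cox6a1) or the GABPA core on either strand (Uqcr11 and Atp5e). They lie at chr2:36049339-36049438, chr10:80406835-80406934, chr5:115349044-115349143 and chr2:174464151-174464250, all on the minus strand.
Ndufa8: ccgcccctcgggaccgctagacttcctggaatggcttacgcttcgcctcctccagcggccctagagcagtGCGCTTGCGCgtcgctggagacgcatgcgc
Uqcr11: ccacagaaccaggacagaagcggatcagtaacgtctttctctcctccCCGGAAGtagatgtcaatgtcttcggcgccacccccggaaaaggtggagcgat
Cox6a1: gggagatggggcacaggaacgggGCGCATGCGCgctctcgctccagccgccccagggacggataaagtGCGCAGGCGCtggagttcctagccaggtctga
Atp5e: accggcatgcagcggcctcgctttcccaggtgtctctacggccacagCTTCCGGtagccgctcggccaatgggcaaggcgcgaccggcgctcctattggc

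The genes for these factors and their coactivators were measured at steady levels. Of 21 regulators of mitochondrial biogenesis 0 passed in each comparison by edgeR, in either direction and also with the repeat as a block, and 0 had an unadjusted p under 0.05. Their median log2 fold changes were 0.02, -0.06 and -0.05 in PA against control, PA + PS2 against control and PA + PS2 against PA. Ppargc1a, which encodes the coactivator PGC-1alpha, ran from 41.1 to 60.6 CPM, Nrf1 from 35.7 to 42.8, Gabpa from 25.4 to 39.1, and Tfam, the packaging factor of mitochondrial DNA, from 35.8 to 44. Esrra, a nuclear receptor that works with PGC-1alpha, had a log2 fold change of -0.21 ± 0.12 (SE) in PA + PS2 against PA, edgeR adjusted p 0.999.

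Assembly factors, which build the complexes without staying in them, gave 0 of 46 passing in each comparison by edgeR, with 1, 0 and 1 at an unadjusted p under 0.05. Their medians were 0.01, 0.05 and 0.05. Lyrm7, which hands the Rieske protein to complex III, had a log2 fold change of -0.46 ± 0.17 (SE) in PA against control and 0.43 ± 0.17 in PA + PS2 against PA, with edgeR adjusted p of 1 and 0.742. Those comparisons share the PA libraries.

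Pathways that feed the chain were measured beside it. In the citric acid cycle 0 of 18 genes passed in each comparison, with medians of -0.01, 0.01 and 0.01, and Idh2, the mitochondrial isocitrate dehydrogenase that makes NADPH, stood lowest in p with -0.25 ± 0.11 (SE) in PA + PS2 against control, edgeR adjusted p 0.882. In glycolysis 0 of 20 genes passed, with medians of 0.01, -0.04 and -0.04. Hk2, an inducible hexokinase, measured 8.3, 10.2 and 9.39 CPM in control, 7.87, 8.96 and 6.73 in PA, and 6.25, 5.97 and 6.49 in PA + PS2. PA + PS2 differed from control by -0.57 ± 0.17 (log2, SE), edgeR adjusted p 0.274. Among 12 carriers of electrons and ADP 0 passed, and Slc25a4, the main ADP/ATP exchanger here, ran from 466 to 538 CPM. Among 13 tested hypoxia-responsive genes 0 passed.

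The mitochondrially encoded subunits varied far more than the nuclear ones. Of 13 such genes 7 were tested and 0 passed in each comparison by edgeR, with medians of -0.05, -0.26 and -0.20 and 0 of 7 above 0 in each. mt-Co1, the catalytic subunit of complex IV, measured 1070, 2219 and 2491 CPM in control, 647, 2853 and 2076 in PA, and 1525, 1659 and 1614 in PA + PS2. Its highest and lowest libraries are both PA libraries, repeats 2 and 1. In those libraries the summed nuclear members were 6421 and 7461 CPM, the opposite order.

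**Figure D5:**
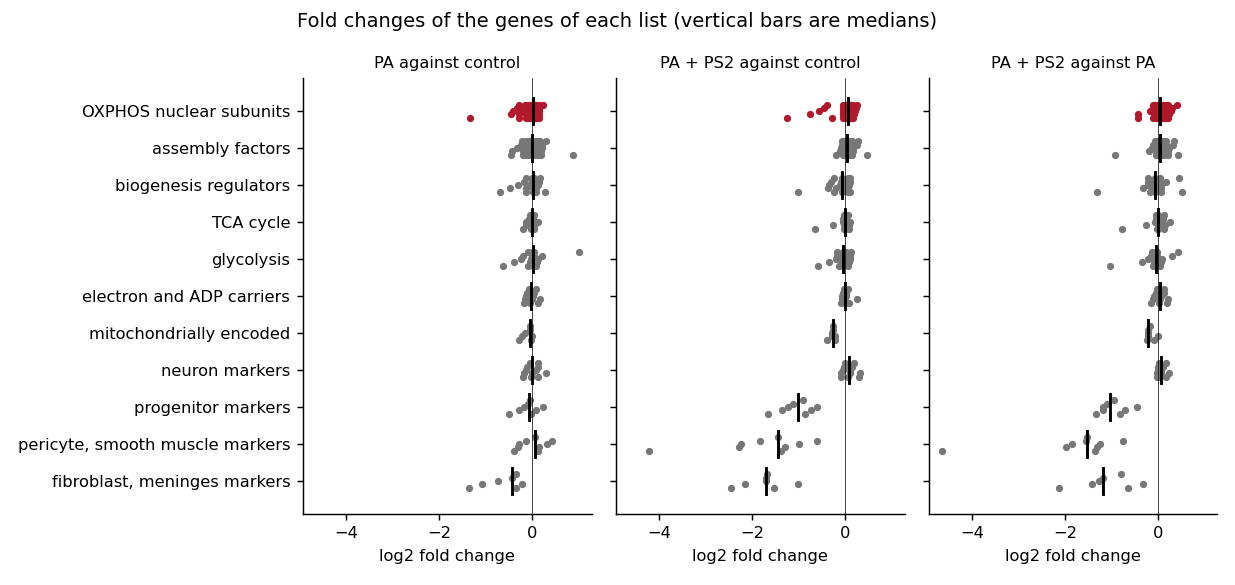
Log2 fold changes (x axis) of the tested genes of each list (y axis) in the 3 comparisons; each point is a gene and each vertical bar the median of its list. The medians of the nuclear subunits (red) lie close to 0 in all panels, at 0.02, 0.06 and 0.04. Single subunits lie further out, such as Cox6b2 at -1.34 in PA against control and Uqcrb at 0.42 in PA + PS2 against PA. Progenitor, pericyte and fibroblast markers lie below 0 in PA + PS2 against control and against PA.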

How the data were processed

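Each library has a deposited file of raw, unnormalized counts by Ensembl identifier. Among the tools in the submitters' processing notes are STAR 2.7.5 and HTSeq 2.0.2, with cutadapt 4.2 and DESeq2 1.14.1 and the build mm10, without settings; the annotation release and strand setting are not given in the sources used here. The labels name both polyA RNA and a total RNA library kit, so the RNA selection is unclear. Gene names, lengths and coordinates came from GENCODE M21 (GRCm38), which matched 54079 of 54232 identifiers.

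Total counts of 20746851 to 27237398 per library were tested with edgeR 4.0.16 in R 4.3.3: TMM scaling, filterByExpr (minimum count 10, 15712 genes), the quasi-likelihood F test on all 9 libraries with 6 residual degrees of freedom, 2-sided, Benjamini-Hochberg adjustment over all genes tested, threshold 0.05. Standard errors were derived from the log2 fold change and its F statistic. DESeq2 1.42.0 was an alternative, with other scalings, filters, a replicate block, length and GC corrections, and each library left out. The test was checked on simulated data. Near-identical copies were sought with blastn 2.17.0+.

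The members and lists were chosen with earlier results of these data known. By rule, values were given for the 2 highest members per kilobase and the 2 of smallest p of each complex and comparison, all paralogs, complex II and Atpif1; other genes named (Ndufs6, the copies, the regulators) were picked with their values in view. One member enters the fits and the sums but is not reported here by name. The ribosomal list leaves out kinases and a binding protein that share its letters.

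The groups share repeat numbers, whose meaning the labels do not give. Over all genes the deviations of same-numbered libraries correlated at 0.422, 0.365 and 0.28 for PA and control and 0.183, 0.217 and 0.135 for PA + PS2 and control. For PA + PS2 and PA they were 0.0147, 0.292 and 0.302.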

Additional observations from a re-analysis of the deposited data

How the results depend on the processing

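Over 22 alternative settings, 9 of which leave out 1 library, 0 members passed an adjusted p under 0.05 in each comparison, by edgeR or DESeq2. The smallest adjusted p among members was 0.202, for PA + PS2 against PA with the GC correction and the replicate block. With the replicate block alone, 0 members passed in each comparison and the medians were 0.02, 0.07 and 0.05. Over all genes, 7 passed in PA + PS2 against control; the count was 184 with the replicate block, 55 with the GC correction, 212 with DESeq2, 365 without a filter and 2 with plain library size. In PA + PS2 against PA it was 0, then 57, 2, 121, 330 and 0. In PA against control it was 0 in all of these except 23 without a filter.

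Leaving out each library in turn, members above 0 numbered 21 to 61 in PA against control (29 without PA repeat 1), 43 to 74 in PA + PS2 against control and 38 to 69 in PA + PS2 against PA, with medians of -0.07 to 0.09, 0.01 to 0.13 and 0 to 0.10. Under upper quartile scaling, 37 were above 0 in PA + PS2 against PA, where the median of all genes was -0.04. Fold changes of single genes were followed for 10 members in each comparison, the 2 of smallest p of each complex. With all repeat 1 libraries left out, an alternative chosen after seeing the data, 3 of these 10 values in PA against control turned from below to above 0: Sdhb (0.02), Cox7b (0.08) and Atp5j (0.01). In that setting 59, 69 and 70 of the 80 members were above 0 in the 3 comparisons, with medians of 0.04, 0.14 and 0.10. By edgeR 9 members had an unadjusted p under 0.05 in PA + PS2 against control, against 0 in the main fit. The share of all genes at that p is not given for this setting, so the 9 cannot be read as a result about the members. At the adjusted p 0 members passed there, beside 125 of 16004 genes, against 7 of 15712 genes in the main fit. With 1 library left out, 4 of the 10 in PA against control crossed 0 or reached it: Sdhb (-0.08 to 0.03), Uqcrfs1 (0 to 0.22), Uqcrb (-0.51 to 0.05) and Cox7b (-0.50 to 0.02). In PA + PS2 against control, Sdhc (-0.01 to 0.13) and Uqcr11 (-0.02 to 0.22) did; the other members were not followed singly. The sums per complex kept within 1 SD under plain library size and TPM. The cause of these shifts was not tested. Depth limits the 10 tested genes under 10 CPM most: in the 3 comparisons 1, 2 and 1 of them had a 95% interval within 1.5-fold, and 3, 4 and 4 within 2-fold.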

Other observations

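Some genes that nearly every cell expresses at high levels were listed low in all 9 libraries. Cycs, which encodes cytochrome c, the electron carrier between complexes III and IV, measured 1.75 to 4.13 CPM. Gapdh, the glycolytic dehydrogenase often used as a reference gene, measured 4.21 to 7.60 CPM. Ndufab1, the mitochondrial acyl carrier protein that also sits in complex I, measured 4.27 to 9.76 CPM. Of the mitochondrially encoded subunits, the counts of mt-Nd3, mt-Nd4l, mt-Atp6, mt-Atp8, mt-Co3 and mt-Co2 were 0 in all 9 libraries. In contrast, mt-Co1 measured 647 to 2853 CPM and mt-Cytb, the cytochrome b of complex III, 740 to 2719 CPM.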
